A study of Mus musculus with 8 samples.

Results

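The Myc and Pvt1 neighbourhood of mouse chromosome 15 was read out of HA chromatin immunoprecipitation and sequencing (ChIP-seq) of epitope-tagged histone H3, over the mm9 window chr15:60800001-62600000. This 1.8 Mb window holds Myc, within chr15:61810001-61830000, a gene-poor stretch before it (the upstream desert), and Pvt1 and further sequence after it. Of 174 rows of the deposited table in the window, 168 were 10 kb wide, and 167 of these bins passed the signal minimum, out of 9820 bins on chromosome 15 and 245206 in all. The upstream desert accounted for 88 of the bins (chr15:60800001-61810000), Myc for 2 (chr15:61810001-61830000) and the downstream stretch for 77 (chr15:61830001-62600000). The window was chosen by measured values, the ratio of H3.3K36M to H3.3WT along it. All values of that ratio, and of the libraries in it, are therefore a description without a test.

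The cells were C3H10T1/2, mesenchymal progenitors derived from C3H mouse embryos, at passage 10 to 15 and grown in serum-containing medium. All 4 lines shared stable expression of a FLAG-HA-tagged histone and differed in which one: wild-type H3.1 (H3.1WT), H3.1 with lysine 36 replaced by methionine (H3.1K36M), wild-type H3.3 (H3.3WT) or H3.3 with the same replacement (H3.3K36M). The sources used here do not say whether a line is 1 clone or a pool. HA signal reports the tagged histone, not total H3. With 1 HA library per line, no difference below has a replicate check, and differences between libraries, between lines and between histones cannot be told apart.

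Myc encodes a basic helix-loop-helix leucine zipper transcription factor that drives growth and division, and Pvt1 is the long non-coding RNA gene beside it. The gene-poor sequence around Myc is known for enhancers that act on Myc over long distances in several tissues. H3.1 is placed mainly behind replication forks, whereas H3.3 can be placed at any time and is known for marking active genes and regulatory elements. The K36M protein inhibits the enzymes that methylate lysine 36. In the RefSeq gene order of another build, GRCm38.p6, the gene right before Myc is Gm18788 and the gene right after it is Pvt1. The nearest protein-coding genes in that order are A1bg before Myc, with 7 other genes between, and Gsdmc after it, with 16 between. The sources used here do not give the ends of Pvt1 in mm9, so bins after Myc are described by position, and no exon or intron is assigned.

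The libraries held between 35487141 and 46749609 reads, and median depth in the window was 157 reads per bin in H3.1WT, 178 in H3.1K36M, 330 in H3.3WT and 169 in H3.3K36M. Signal is in RPM (reads scaled to the library's total) per 10 kb. Fold intervals are exact Clopper-Pearson 95% intervals on reads and cover counting error only, since each line has 1 HA library. These reads carry no molecular identifiers and cannot be taken as separate molecules, so the intervals may be too narrow even for counting error. Chromosome 15 as a whole stood higher in H3.3WT than in the other libraries. In H3.3WT its median bin was 1.52 times the median over the genome, against 1.12 in H3.1WT, 1.15 in H3.1K36M and 1.13 in H3.3K36M. Among low bins (the 10th percentile) the same ratio was 1.46 in H3.3WT and 1.19 to 1.24 in the other libraries. The ratio of H3.3K36M to H3.3WT is therefore also given minus its median over chromosome 15, which was -0.20 on the log2 scale against 0.10 for all bins. The part of the chromosome-wide difference in the window's values was not tested. Whether the lines differ in the copy number of chromosome 15, which would change what the ratio measures, was not tested either, since the input libraries were not used here.

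Tagged H3.3 was lower across the desert before Myc in the H3.3K36M line than in H3.3WT, while the Myc bins had near-equal signal and the first stretch after Myc had equal or higher signal. The median bin of the window held 4.44 RPM in H3.1WT, 4.29 in H3.1K36M, 7.10 in H3.3WT and 4.38 in H3.3K36M. H3.3WT was thus the high library, at 2.56 times its own median over all bins, against 1.46 times for H3.3K36M. The median log2 ratio of H3.3K36M to H3.3WT was -0.57 in the window, or -0.37 after subtraction of the chromosome 15 median. Single bins ran from -2.06 to 0.66. Of the 167 bins, 27 (16.2%) had H3.3K36M at or past 2-fold lower and 0 had it at or past 2-fold higher. The background was 1.81% lower and 2.94% higher among all bins, and 5.78% lower and 0.54% higher on chromosome 15. With the chromosome 15 median subtracted, 18 bins (10.8%) were past 2-fold lower and 0 past 2-fold higher, against 2.65% and 1.35% of chromosome 15. The 2-fold limit is a rule of size, and since this ratio led to the choice of the window nothing is read from the excess.

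**Figure D1:**
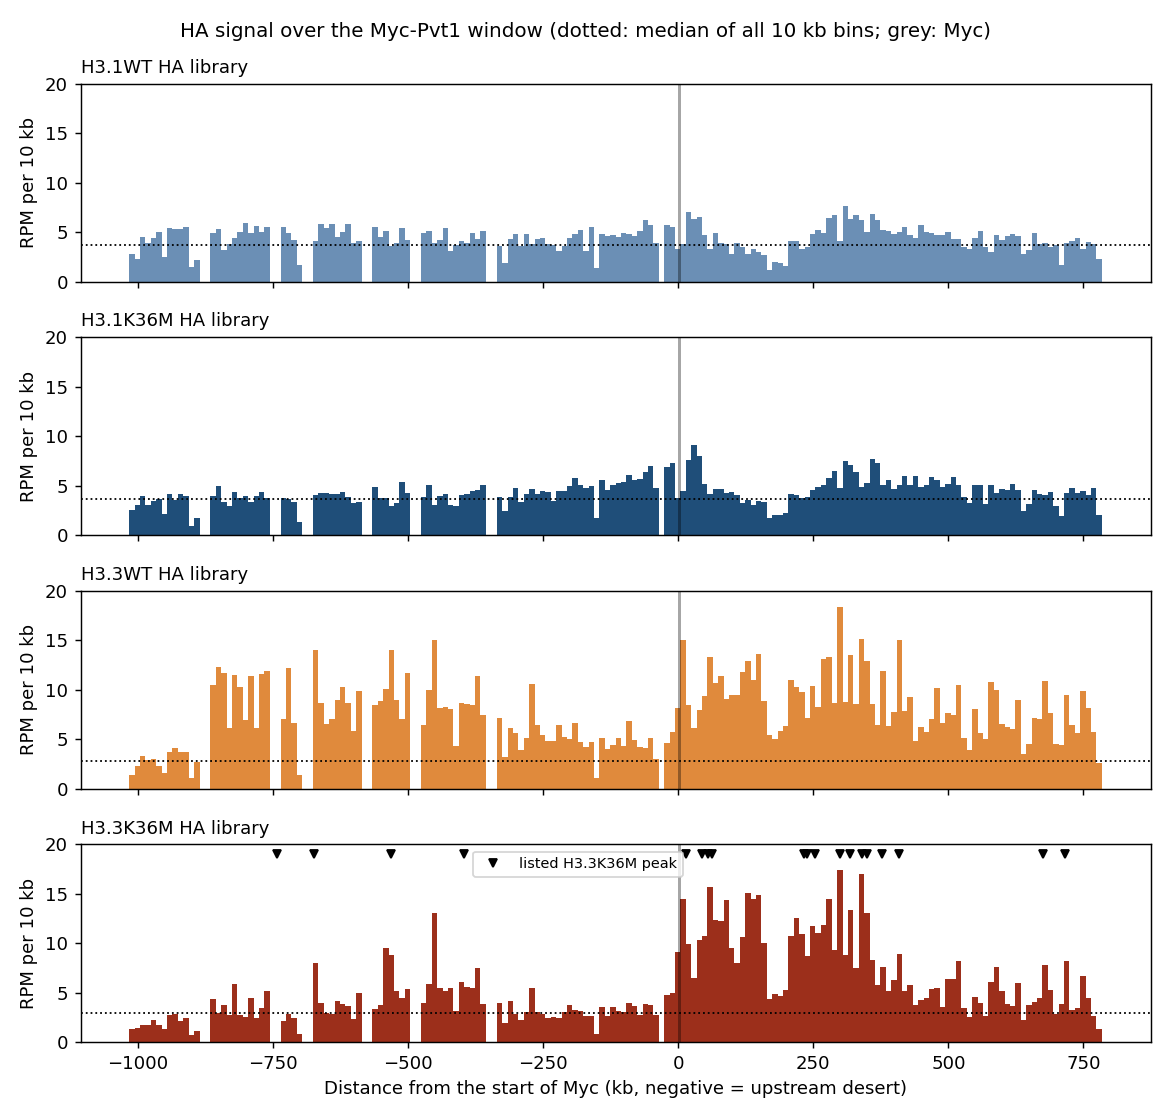
HA signal in RPM per 10 kb bin (vertical axis, 1 panel per library) against distance from the start of Myc in kb (horizontal axis); the dotted line is the library's median over all bins, the grey band is Myc, triangles are listed H3.3K36M peaks, and gaps are wider or filtered rows. Tagged H3.3WT is high on both sides of Myc, whereas H3.3K36M is high mainly from Myc to about 62200000 and averages 3.68 RPM in the upstream desert.

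In the upstream desert the mean signal was 4.41 RPM in H3.1WT, 4.12 in H3.1K36M, 6.70 in H3.3WT and 3.68 in H3.3K36M. In RPM as deposited, H3.3WT was the highest of the libraries there and H3.3K36M the lowest. The fold of H3.3K36M over H3.3WT was 0.548 (95% interval 0.537 to 0.560), which is 1.82-fold lower. The ratio was below 0 on the log2 scale in 87 of 88 bins, and 26 of the window's 27 bins past 2-fold lower lay here. Among all bins 41.6% were below 0, and on chromosome 15 66.6% were. The ratio was below the chromosome 15 median in 82 of the 88 bins. The median log2 ratio was -0.76, or -0.57 minus the chromosome 15 median.

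Signal in the desert was not even along its length. The first 50 kb of the window averaged 2.56 RPM in H3.3WT and 1.67 in H3.3K36M, below each library's median over all bins. H3.3WT then stepped up, from 2.67 RPM in the bin chr15:60920001-60930000 to 10.5 RPM in chr15:60950001-60960000, with 10.6 RPM per 10 kb in the 20 kb row between them. H3.3K36M went from 1.14 to 4.38 RPM over the same step. H3.1WT, at 2.15 and 4.92 RPM, and H3.1K36M, at 1.69 and 3.98 RPM, rose there as well, but from a local low. The first 50 kb averaged 3.57 RPM in H3.1WT and 3.22 in H3.1K36M, and the bin chr15:60850001-60860000 already held 5.01 and 3.64 RPM. In that bin H3.3WT held 2.26 RPM and H3.3K36M 1.79 RPM. The step was thus clearest in tagged H3.3 and reached the highest level in H3.3WT.

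The lowest H3.3 ratios lay in 4 runs of at least 3 touching bins, all in the first 3 segments of 200 kb. The run chr15:60950001-60990000 averaged 10.2 RPM in H3.3WT and 3.48 in H3.3K36M, 2.92-fold lower (interval 2.65 to 3.22). Over chr15:61000001-61060000 the values were 9.70 and 3.48 RPM, 2.78-fold lower (2.57 to 3.01). Over chr15:61080001-61110000 they were 8.61 and 2.49 RPM, the largest fold of the runs at 3.46 (3.04 to 3.95). The last and longest run, chr15:61150001-61220000, averaged 8.0 and 3.40 RPM, 2.35-fold lower (2.18 to 2.54). In each run, in RPM as deposited, H3.3WT stood above both H3.1 libraries and H3.3K36M below both.

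The single lowest bin was chr15:61090001-61100000, with 4.87 RPM in H3.1WT, 3.69 in H3.1K36M, 12.2 in H3.3WT and 2.85 in H3.3K36M. H3.3K36M was 4.28-fold lower than H3.3WT in it (interval 3.48 to 5.30). The next, chr15:60960001-60970000, held 12.3 RPM in H3.3WT and 2.98 in H3.3K36M, 4.12-fold lower (3.37 to 5.08). The remaining 3 of the 5 lowest bins began at 61000001, 61040001 and 61080001 and were 3.71-fold, 3.35-fold and 3.22-fold lower. These bins were ranked on the same reads, so their folds tend to be overstated. The 6 rows of 20 kb in the desert, left out of the bin counts, were also lower in H3.3K36M, by 1.90-fold to 2.72-fold.

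The H3.3 difference was largest in the second 200 kb of the desert, and H3.3WT signal fell towards Myc after the third. In consecutive 200 kb segments from the window's start, the fold of H3.3K36M over H3.3WT was 0.494, 0.390, 0.605, 0.582 and 0.694 up to 61800000. The second segment, chr15:61000001-61200000, was, by median log2 ratio, the sixth lowest of 502 such segments on chromosome 15 and the sixteenth lowest of 12673 in all. It averaged 4.92 RPM in H3.1WT, 3.78 in H3.1K36M, 8.81 in H3.3WT and 3.44 in H3.3K36M. The fifth, right before Myc, averaged 4.61, 5.26, 4.61 and 3.20 RPM in the same order. In RPM as deposited, H3.3WT thus no longer stood above H3.1WT there. Against each library's own median over all bins, that segment stood at 1.66 in H3.3WT and 1.26 in H3.1WT. The bins past 2-fold lower numbered 5, 14, 5, 2 and 0 in these segments.

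**Figure D2:**
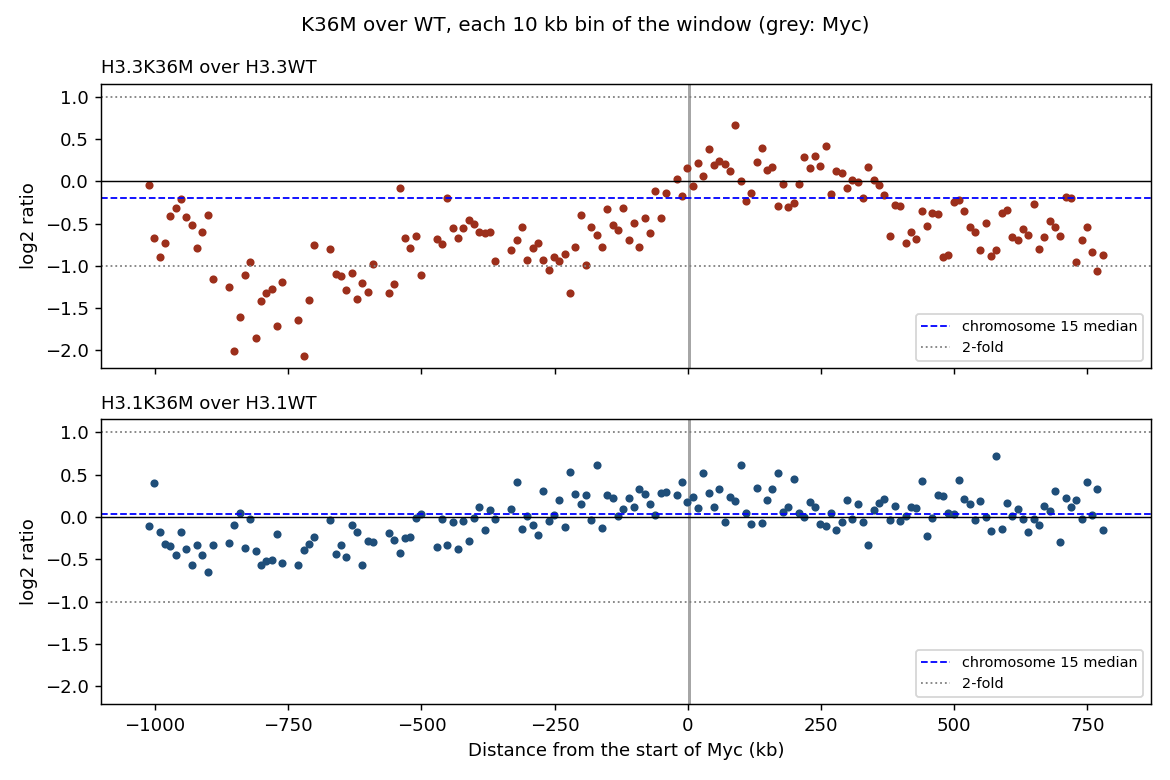
Log2 ratio of K36M to WT per 10 kb bin for the H3.3 lines and the H3.1 lines (vertical axis) against distance from the start of Myc in kb (horizontal axis), from RPM plus 0.1. H3.3 ratios reach -2.06 in the desert and rise to 0.66 after Myc, whereas no H3.1 bin is past 2-fold in either direction.

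At Myc the H3.3 lines had near-equal signal. The bin chr15:61810001-61820000, which holds the first part of Myc, had 3.28 RPM in H3.1WT, 3.71 in H3.1K36M, 8.17 in H3.3WT and 9.09 in H3.3K36M. The bin chr15:61820001-61830000, which holds the end of Myc and 8 kb after it, had 3.76, 4.46, 15.0 and 14.5 RPM in the same order. Both H3.3 libraries were above both H3.1 libraries in each bin. Over both bins together H3.3K36M was 1.02 times H3.3WT (interval 0.929 to 1.11). Their summed log2 ratio was 0.02 as deposited, 0.22 minus the chromosome 15 median and -0.079 minus the median of all bins, so its direction turned with the scaling.

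The second Myc bin was among the strongest H3.3 bins of the table. In H3.3WT 0.52% of all bins and 2.94% of chromosome 15 bins reached its level. In H3.3K36M the shares were 0.863% and 1.78%. The first Myc bin stood lower among them. In H3.3WT 9.03% of all bins and 22.7% of chromosome 15 bins reached its level, and in H3.3K36M 5.43% and 8.96% did. The bin right before Myc, chr15:61800001-61810000, had 5.46 RPM in H3.1WT, 7.28 in H3.1K36M, 5.70 in H3.3WT and 5.02 in H3.3K36M. In RPM as deposited, H3.3 was thus well above H3.1 in the Myc bins and not in the bin before them. Neither Myc bin held a listed H3.3K36M peak. Of the 2115 bins at or above the second bin's H3.3K36M level 66.8% did, and of the 8 such bins in the window 37.5% did. At or above the first bin's level the shares were 42.4% among all bins and 41.4% in the window. The sources used here do not say how peaks were called.

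After Myc, over the stretch in which Pvt1 begins, the H3.3 lines had near-equal RPM as deposited up to about 62200000. Beyond that position H3.3K36M was below H3.3WT again. The segment chr15:61800001-62000000, which includes Myc, averaged 3.90 RPM in H3.1WT, 4.60 in H3.1K36M, 9.64 in H3.3WT and 10.6 in H3.3K36M. H3.3K36M was 1.10 times H3.3WT there (interval 1.07 to 1.14), or 0.34 above the chromosome 15 median as a median log2 ratio. The next segment, chr15:62000001-62200000, averaged 5.04, 5.13, 10.4 and 10.5 RPM, a fold of 1.01 (0.980 to 1.04). Its median log2 ratio was 0.20 above the chromosome 15 median. Both H3.3 libraries stood at about the same height over this stretch, each above both H3.1 libraries.

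The 5 bins with the highest H3.3 ratio of the window all lay in this stretch. The highest, chr15:61900001-61910000, had 3.76 RPM in H3.1WT, 4.29 in H3.1K36M, 9.05 in H3.3WT and 14.4 in H3.3K36M. H3.3K36M was 1.59-fold higher in it (interval 1.40 to 1.81), which is short of 2-fold. The others began at 62070001, 61950001, 61850001 and 62050001, with folds of 1.34, 1.31, 1.31 and 1.23. The bin with the most H3.3 of the window, chr15:62110001-62120000, held 18.4 RPM in H3.3WT and 17.4 in H3.3K36M, against 4.13 in H3.1WT and 4.75 in H3.1K36M. Its H3.3 fold of 0.946 had an interval of 0.854 to 1.05.

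Within this stretch the 4 bins of chr15:61980001-62020000 formed a dip in all libraries. H3.1WT held 1.16, 1.98, 1.90 and 1.58 RPM in them, and H3.1K36M 1.71 to 2.19 RPM. H3.3WT held 5.03 to 6.30 RPM and H3.3K36M 4.40 to 5.26 RPM. Each H3.3 library thus stayed above its H3.1 counterpart in the dip, and the first of these bins was the lowest of the window in H3.1WT.

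Beyond 62200000 the H3.3K36M signal was lower again. The segment chr15:62200001-62400000 averaged 7.55 RPM in H3.3WT and 5.12 in H3.3K36M, a fold of 0.679 (interval 0.653 to 0.706). The last segment averaged 6.76 and 4.54 RPM, a fold of 0.671 (0.644 to 0.700). Minus the chromosome 15 median, the median log2 ratios of these segments were -0.34 and -0.45. Over the whole downstream stretch the means were 4.33 RPM in H3.1WT, 4.66 in H3.1K36M, 8.55 in H3.3WT and 7.63 in H3.3K36M, and the H3.3 fold was 0.893 (0.878 to 0.908). The downstream ratio was below 0 in 54 of 77 bins, with 1 bin past 2-fold lower. On chromosome 15, 66.6% of bins were below 0, so the downstream count is near that background. Its summed log2 ratio was -0.16 as deposited and 0.035 minus the chromosome 15 median, so the direction of the downstream difference turned with that subtraction.

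**Figure D3:**
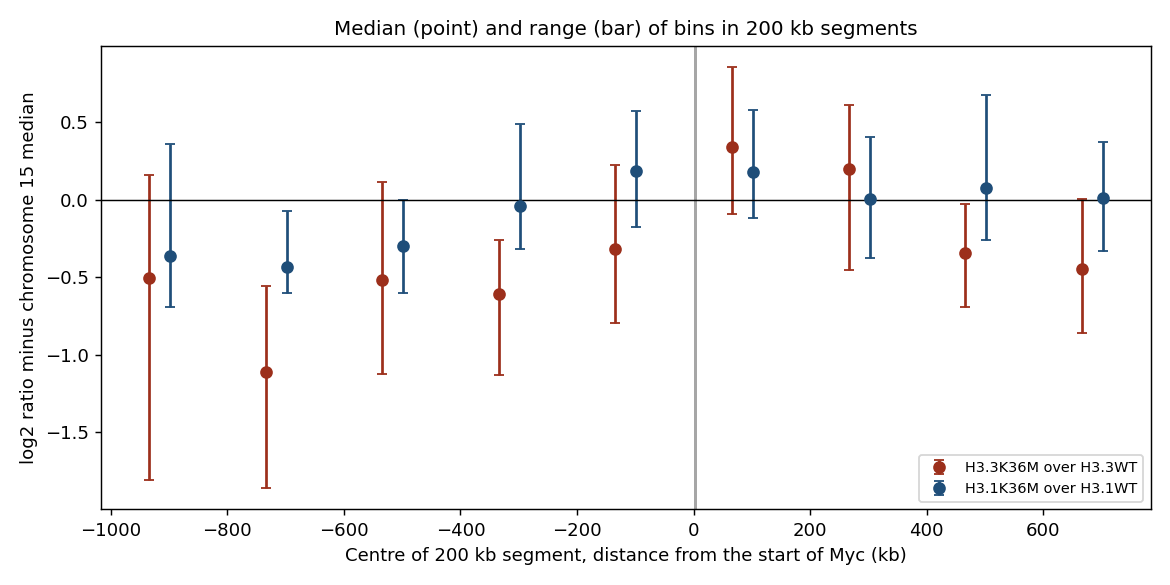
Log2 ratio of K36M to WT minus the chromosome 15 median (vertical axis) in the 9 consecutive 200 kb segments of the window, by distance from the start of Myc in kb (horizontal axis), for the H3.3 and the H3.1 lines; points are medians of bins and bars their range. The H3.3 median is lowest in the second segment (-1.11) and highest in the sixth (0.34), which holds Myc.

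Contrasts within a library do not depend on how libraries are scaled to each other or on the level of the chromosome in a library. The Myc bins over the upstream desert gave 0.798 in H3.1WT (interval 0.702 to 0.905), 0.992 in H3.1K36M (0.888 to 1.10), 1.73 in H3.3WT (1.63 to 1.84) and 3.20 in H3.3K36M (2.99 to 3.43). The downstream stretch over the desert gave 0.981 in H3.1WT, 1.13 in H3.1K36M, 1.28 in H3.3WT and 2.08 in H3.3K36M. Tagged H3.3 was thus higher at and after Myc than before it in both H3.3 lines, and the contrast was larger in H3.3K36M. The sixth and the seventh segment over the second and the third, a pairing chosen after their values were seen, gave 1.10 in H3.3WT (1.08 to 1.13) and 2.33 in H3.3K36M (2.26 to 2.40). The same pairing gave 0.946 in H3.1WT and 1.27 in H3.1K36M.

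Tagged H3.1 differed much less between its WT and K36M lines. The window's fold of H3.1K36M over H3.1WT was 1.00 (interval 0.984 to 1.02), single bins ran from -0.66 to 0.72 on the log2 scale, and 0 bins were past 2-fold in either direction. The background of this comparison was 0.064% lower and 0.0122% higher among all bins, and 0.112% lower and 0.0% higher on chromosome 15. The lowest bin, chr15:60910001-60920000, had 1.5 RPM in H3.1WT and 0.916 in H3.1K36M. The highest, chr15:62390001-62400000, had 3.03 and 5.04 RPM. The first of these is a low bin in every library, down to 0.777 RPM in H3.3K36M, which was that library's lowest of the window.

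A smaller gradient in the same direction was present in the H3.1 lines. Their fold over the 9 segments was 0.830, 0.768, 0.851, 1.02, 1.14, 1.18, 1.02, 1.10 and 1.05. The second segment, lowest for H3.3, was also lowest for H3.1, at 4.92 RPM in H3.1WT and 3.78 in H3.1K36M. It was the twelfth lowest of 502 on chromosome 15 for H3.1. The H3.1 fold was 0.933 (interval 0.912 to 0.955) in the upstream desert, 1.16 (0.982 to 1.37) in the Myc bins and 1.08 (1.05 to 1.10) downstream. The H3.1 ratio was below 0 in 58 of the 88 desert bins, where 43.7% of chromosome 15 bins and 50.2% of all bins were. The H3.3 ratio was below 0 in 87 of the 88, so a count of bins with both below 0 adds nothing to this. The H3.3 and H3.1 ratios share no library. As a description, Pearson's r between them was 0.387 over the 167 bins (Spearman's rho 0.375), 0.308 in the desert and 0.0529 downstream, against 0.131 on chromosome 15. Neighbouring bins are not independent of each other.

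**Figure D4:**
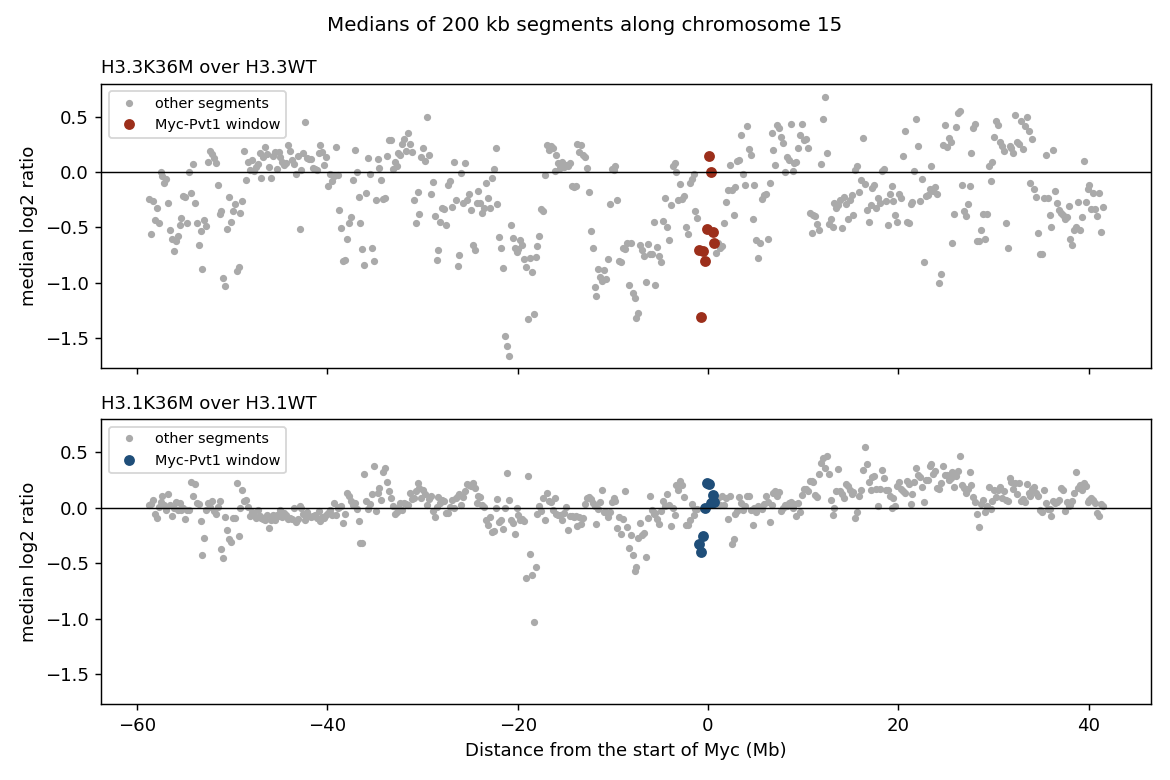
Median log2 ratio of K36M to WT in 200 kb segments along chromosome 15, by distance from Myc in Mb, for the H3.3 and the H3.1 lines, with the window's segments marked. The H3.3 segments centre on the chromosome median of -0.20, and the second segment of the window is the sixth lowest of 502.

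Set against H3.1 in RPM as deposited, H3.3 was enriched on both sides of Myc in the WT lines. This did not hold in the 200 kb right before the Myc segment, where H3.3WT was 1.00 times H3.1WT (interval 0.954 to 1.05). In the K36M lines H3.3 was enriched mainly after Myc. H3.3WT was at least 2-fold above H3.1WT in 61 bins (36.5%), against 10.3% of all bins and 17.7% of chromosome 15, and at least 2-fold below it in 2, against 16.8% of all bins and 3.8% of chromosome 15. H3.3K36M was at least 2-fold above H3.1K36M in 31 bins (18.6%), against 8.18% of all bins and 8.32% of chromosome 15, and below it in 4, against 3.29% of all bins and 3.32% of chromosome 15. By segment, the bins past 2-fold higher numbered 4, 7, 6, 5, 0, 15, 13, 4 and 7 in the WT lines and 0, 0, 3, 0, 0, 15, 13, 0 and 0 in the K36M lines. The Myc segment and the one after it thus had equal counts in both pairs of lines, as did the fifth segment, at 0. In the other desert segments and the far downstream segments the counts were higher in the WT lines.

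In the upstream desert H3.3WT was 1.52 times H3.1WT (interval 1.49 to 1.55), and H3.3K36M was 0.892 times H3.1K36M (0.871 to 0.914). The latter is -0.16 on the log2 scale and turns to 0.17 minus the chromosome 15 median of that comparison. Against each library's own median over all bins, the desert stood at 1.22 in H3.3K36M and 1.13 in H3.1K36M, so which of these is higher depends on the scaling. In the Myc bins the values were 3.29 (2.86 to 3.79) and 2.88 (2.54 to 3.27), intervals that overlap. Downstream they were 1.98 (1.93 to 2.02) and 1.64 (1.61 to 1.67). The longest run of touching bins with H3.3WT past 2-fold above H3.1WT was the 180 kb of chr15:61870001-62050000, at 3.1 RPM in H3.1WT and 9.73 in H3.3WT. In the K36M lines the runs there were chr15:61860001-61920000, at 4.55 RPM in H3.1K36M and 12.5 in H3.3K36M, and chr15:61930001-62100000, at 3.58 RPM in H3.1K36M and 10.4 in H3.3K36M. The highest bin of the WT pair was chr15:61940001-61950000, with 2.80 RPM in H3.1WT and 12.9 in H3.3WT. The highest of the K36M pair was the bin after it, with 3.08 RPM in H3.1K36M and 14.5 in H3.3K36M. The lowest bins of these comparisons, which began at 60850001 and 60820001, were both in the first 60 kb of the window.

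The authors' peak lists held 19 H3.3K36M peaks in the window and 0 H3.1K36M peaks. This is 10.6 H3.3K36M peaks per Mb, against 4.88 on chromosome 15 and 3.17 in all. Of the 19 peaks, 4 lay in the upstream desert (3.96 per Mb), 0 in the Myc bins and 15 downstream (19.5 per Mb). The desert's density was between those of all chromosomes and of chromosome 15. The Myc bins span 20 kb, so a count of 0 there is of little weight. Between the last desert peak and the first downstream peak was a gap of 409.2 kb that includes Myc. Peak lengths ran from 1 to 11.4 kb with a median of 2.2 kb, near the 2 kb of the full list.

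The downstream peaks began at chr15:61830001-61832000, 8 kb past the end of Myc, and 11 of the 15 lay before 62170000. The longest were chr15:62110001-62121400 (11.4 kb) and chr15:62151401-62162400 (11 kb). The rows holding the first held 5.86 RPM per 10 kb in H3.1WT, 6.10 in H3.1K36M, 13.6 in H3.3WT and 13.1 in H3.3K36M. Those holding the second held 5.59, 5.09, 14.0 and 15.0 RPM in the same order. Rows of these 11 peaks had H3.3 folds from 0.966 to 1.23, so H3.3WT signal was of similar height over these rows. Most of these peaks are shorter than a row, so signal at the peaks themselves was not resolved.

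Of the remaining downstream peaks, the 3 at chr15:62192201-62193200, chr15:62223601-62225200 and chr15:62489801-62491000 lay in rows where H3.3K36M was 1.57-fold, 1.67-fold and 1.47-fold lower than H3.3WT. The last, chr15:62530001-62532200, lay in a row with 9.42 RPM in H3.3WT and 8.21 in H3.3K36M, and its interval of 0.752 to 1.01 spans 1. The desert peaks too lay in rows that were lower in H3.3K36M. The first, chr15:61071801-61076600, lay in a 20 kb row with 4.54 RPM per 10 kb in H3.1WT, 3.49 in H3.1K36M, 15.7 in H3.3WT and 7.05 in H3.3K36M, 2.22-fold lower (interval 2.01 to 2.46). The next, chr15:61140201-61141800, lay in a bin with 14.1 RPM in H3.3WT and 8.0 in H3.3K36M, 1.76-fold lower. The other desert peaks, chr15:61283801-61286200 and chr15:61419401-61420800, lay in rows that were 1.60-fold and 1.47-fold lower.

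Listed H3.3K36M peaks therefore stood both in rows where the H3.3 lines were about level and in rows where H3.3K36M was the lower of them. The 23 bins of the window that held a peak had a median of 10.4 RPM for H3.3WT and 9.89 for H3.3K36M. The 144 bins without one had medians of 6.56 and 3.85 RPM. H3.1 medians were 4.73 RPM in H3.1WT and 4.65 in H3.1K36M with a peak, and 4.44 and 4.28 without. The peaks were called from the H3.3K36M signal itself, so its height in them is part of how they were chosen.

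The edges of the window did not coincide with a change in the H3.3 ratio at the far end. The 5 bins outside the start averaged 2.18 RPM in H3.3WT and 1.95 in H3.3K36M, a fold of 0.896, and the 5 inside averaged 2.56 and 1.67 RPM, a fold of 0.653. The 5 bins inside the end averaged 6.38 and 3.75 RPM, a fold of 0.587, and the 5 outside averaged 5.67 and 3.08 RPM, a fold of 0.543. H3.3K36M was thus lower than H3.3WT on both sides of the far edge.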

How the data were processed

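HA ChIP-seq libraries from 4 C3H10T1/2 lines were used, 1 per line. Groups came from the labels' genotype and description fields. Both H3.3 HA samples carry titles that start with an H3.1 name, and the protocol text mentions a Cbx2 antibody; the genotype field (H3.3) and the description field (HA) decided. Bowtie 1.0.0 and build mm9 are named per the submitters' processing notes. The sources used here do not give binning, duplicate handling, peak caller or peak threshold. The authors deposited RPM per genomic row and lists of peak positions without scores. In each RPM column 100% of values were whole multiples of 1 read within 0.01 read, so reads were recovered. No count test was run, because each group has 1 library.

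Rows of 10 kb on 20 chromosomes (the autosomes and X) were kept where the libraries' mean signal reached 0.5 RPM, and 1 window row fell below this. Log2 ratios are of RPM plus 0.1 RPM, so changes in low bins are understated. Regions were summed over bins, and their folds carry exact Clopper-Pearson 95% intervals. The ratio and interval code was tested on simulated reads. The members, lists and rules were chosen with earlier results of these data known. Bins named are those overlapping Myc, the 5 lowest and 5 highest H3.3 ratios, runs of at least 3 touching bins past 2-fold, extremes of each comparison and library, 5 bins on each side of each edge, and every peak. Alternatives were other pseudocounts, filters, median subtraction, wider rows and longer peaks. Coordinates are 1-based. Software was scipy 1.17.1, pandas 2.3.3, numpy 2.4.6 and matplotlib 3.10.9 under Python 3.11.15.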

Additional observations from a re-analysis of the deposited data

Results flagged for a closer look

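Of the 3 parts of the window and its 9 segments, 3 regions had K36M over WT folds on opposite sides of 1 in the H3.3 and the H3.1 lines with both counting intervals clear of 1. The difference between these effects was not tested, since each line has 1 library. Over the downstream stretch chr15:61830001-62600000, H3.3K36M was 0.893 times H3.3WT and H3.1K36M was 1.08 times H3.1WT. This opposition is not present minus the chromosome 15 median, where the summed log2 ratios are 0.035 for H3.3 and 0.066 for H3.1. Over chr15:61600001-61800000, the 200 kb right before the Myc segment, the folds were 0.694 for H3.3 and 1.14 for H3.1. Over chr15:62200001-62400000 they were 0.679 for H3.3 and 1.10 for H3.1. The segments chr15:61400001-61600000 (0.582 and 1.02) and chr15:62400001-62600000 (0.671 and 1.05) also had folds on opposite sides of 1, but their H3.1 intervals span 1.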

How the results depend on the processing

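Each library is the only one of its line, so leaving out a replicate was not possible. No paired analysis was possible because each group has 1 HA library and the labels give no replicate numbers. As log2 of summed signal, the window's H3.3K36M to H3.3WT ratio of -0.44 became -0.38 with a pseudocount of 1 RPM, -0.54 with the median of all bins subtracted, -0.24 with the chromosome 15 median subtracted and -0.49 with wider rows. In the upstream desert -0.85 became -0.72, -0.95 and -0.65 under the first 3 of these. Downstream, -0.16 became -0.26 with the median of all bins subtracted and turned to 0.035 with that of chromosome 15, and the Myc bins went from 0.02 to 0.22 with the latter. The H3.1 ratio of 0.00 became -0.036 with the chromosome 15 median subtracted. H3.3WT over H3.1WT, 0.79, became 0.68 with 1 RPM, 0.83 with a filter at the median signal, 1.22 and 0.83 with the medians of all bins and of chromosome 15 subtracted, and 0.81 with wider rows. Its 2 bins past 2-fold lower became 0 with 1 RPM, the stricter filter or the median of all bins, and 1 with that of chromosome 15. H3.3K36M over H3.1K36M, 0.35, became 0.30, 0.39, 0.65 and 0.68 under the same first 4 settings. Its 4 bins past 2-fold lower became 0 with 1 RPM or either subtraction and 1 with the stricter filter. Keeping peaks of at least the median length left 11 of 19. The cause of these changes was not tested. The other 70 values moved by less than their counting interval, or by at most 1.5 times for counts, which includes 27 against 18 bins past 2-fold lower in H3.3K36M with the chromosome 15 median subtracted. Among them the sign turned for the Myc bins, to -0.079 with the median of all bins subtracted, and for the window's H3.1 ratio, to -0.013 with wider rows. Alternatives for the 200 kb segments, chosen after seeing the data, moved 25 of 54 values. Values with an interval spanning 0 turned sign in the seventh segment for H3.3 (0.013 to -0.089, median of all bins subtracted) and, with the chromosome 15 median subtracted, for H3.1 in the fourth (0.028 to -0.010) and the seventh (0.026 to -0.012). No segment value with an interval clear of 0 turned sign. Depth limits single bins: the lowest of the window held 30 reads in H3.3K36M.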
